A study of Rattus norvegicus with 4 samples.

Results

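Nrcam, Nfasc, Cntn1, Cntn2, Cntnap1, Cadm1, Cadm2, Cadm3 and Cadm4 encode cell adhesion molecules of the contact between peripheral axons and the glia that wrap them. The 9 genes were taken by symbol from the gene table of the series, which holds 25399 genes, and each matched 1 row. They were followed by library and by cell class, with the neuron side set against the glia side. The series profiled single cells of sciatic nerve and dorsal root ganglion from Sprague Dawley rats at postnatal day 1 and at 8 weeks, and its title asks how Schwann cells of ganglion and nerve differ. All 4 groups (1-day sciatic nerve, 8-week sciatic nerve, 1-day ganglion, 8-week ganglion) share the strain, carry no stated treatment or genotype, and are of undetermined sex. Each group had 1 library. The labels describe primary Schwann cells grown in medium with serum, and do not say whether the sequenced cells were cultured, nor how many animals gave a library.

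The libraries share 1 count matrix and are told apart by the number from 1 to 4 that ends each cell barcode. Which number stands for which group is not given in the sources used here. The numbers therefore serve as library names, and tissues and ages were not set against each other. Every comparison was made between cell classes inside 1 library. With 1 library per group there is no replicate check and no p-value. A gene was called higher or lower when the ratio of its levels passed 2-fold. Levels are UMIs (unique molecular identifiers, 1 per captured transcript) of a gene per 1000000 UMIs of a class, written CPM, and intervals are exact 95% intervals that cover counting error only.

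Myelinated fibres place these molecules in a fixed order along the axon. At the node of Ranvier, where sodium channels cluster, the axonal isoform of neurofascin (Nfasc) and NrCAM (Nrcam) bind gliomedin (Gldn) from the Schwann cell. At the flanking paranode, axonal contactin-1 (Cntn1) and Caspr (Cntnap1) form a complex that meets the glial isoform of neurofascin and closes the myelin loops against the axon. Contactin-2 (Cntn2, also called TAG-1) holds the potassium channels of the juxtaparanode, and along the internode the axonal nectin-like protein Cadm3 is known to bind Cadm4 on the Schwann cell. Cadm1 and Cadm2 belong to the same family and have been placed mainly on axons.

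The proximal promoters of 3 members are shown because they lie on different sides of the contact in the values given further on: Cadm4 was a gene of glia-like cells, Cntn2 of neuron-like cells, and Cadm3 of both. The sequences are the 250 bases before the annotated start, from RefSeq on the build GRCr8, 5′ to 3′ on the strand of the gene, with the GC box GGGCGG in capitals on either strand.
Cadm4, chr1:89202839-89203088, plus strand: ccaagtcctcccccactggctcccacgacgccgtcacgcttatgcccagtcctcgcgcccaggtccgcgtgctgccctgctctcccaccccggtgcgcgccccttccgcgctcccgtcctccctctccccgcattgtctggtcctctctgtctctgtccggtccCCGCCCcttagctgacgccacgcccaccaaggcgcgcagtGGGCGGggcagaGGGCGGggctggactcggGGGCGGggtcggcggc
Cadm3, chr13:88349719-88349968, minus strand: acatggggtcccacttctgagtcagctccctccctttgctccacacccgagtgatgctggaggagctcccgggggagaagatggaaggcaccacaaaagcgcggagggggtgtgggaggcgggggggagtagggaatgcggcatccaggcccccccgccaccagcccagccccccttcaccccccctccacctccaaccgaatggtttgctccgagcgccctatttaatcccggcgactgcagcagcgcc
Cntn2, chr13:46528026-46528275, minus strand: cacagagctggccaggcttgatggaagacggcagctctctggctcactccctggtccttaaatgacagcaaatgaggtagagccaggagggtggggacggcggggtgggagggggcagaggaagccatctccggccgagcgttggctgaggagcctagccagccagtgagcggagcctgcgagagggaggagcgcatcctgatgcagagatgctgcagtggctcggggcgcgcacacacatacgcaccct
Cadm4 held 4 GC boxes, and the windows of Cadm3 and Cntn2 held none. Over all 33469 promoter windows of the same length, 30.5% held at least 1 GC box. GC content was 74.0% for Cadm4, 66.4% for Cadm3 and 64.4% for Cntn2, beside a median of 51.2% for all windows. The letters ACAAT, the core bound by SOX factors, occurred once in the Cadm4 window on either strand and in 10049 of all 33469 windows. TATAAA occurred in none of the 3 and in 12.9% of all windows, and CAGCTG in none of the 3 and in 4007 of them. The members matched 7 windows of 6 genes in all.

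Of 41444 barcodes, 33175 passed the filters on detected genes (500 or more) and on mitochondrial UMIs (20% or less), and their median depth ran from 1645.5 to 7554.5 UMIs over the 4 libraries. Cells were classed by how many fixed markers they held, a marker counting as detected at 2 UMIs. Neuron-like cells, with at least 8 of 15 neuronal markers such as Snap25, Nefl and Prph, numbered 748 in library 2 and 1737 in library 3, and 0 and 2 in libraries 1 and 4. Glia-like cells, with at least 3 of 10 measured glial markers such as Sox10 and Erbb3, numbered 177, 1480, 396 and 5959 in libraries 1 to 4. The neuron side could therefore be set against the glia side in libraries 2 and 3. In the counts for libraries 2 and 3, 388 and 143 barcodes stood 1 marker short of the neuron gate and 104 and 82 stood on it. Cells with markers of more than 1 class (998, 222, 536 and 726) were left out as possible doublets, no doublet caller was run, and 188 and 261 neuron-like cells still held 3 or more glial markers. Across libraries, 383 barcodes shared a sequence with a barcode of another library.

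Neuronal transcripts were also present in glia-like and macrophage-like cells of libraries 2 and 3. The 15 neuronal markers summed to 22503 CPM in neuron-like cells of library 2, 2290.3 CPM in glia-like cells and 4833 CPM in macrophage-like cells, which should lack them. In library 3 the same sums were 28208, 2278 and 2272 CPM. The level in macrophage-like cells of the same library is therefore given as a background for axonal genes, called the free RNA level. Whether it came from free RNA, doublets or the cells themselves was not tested. The background also differed between classes: endothelial-like cells of library 2 had a neuronal sum of 2234 CPM. The 10 glial markers summed to 357 CPM in neuron-like cells and 11321 CPM in glia-like cells of library 2, and to 263 and 25900.0 CPM in library 3. Neuron-like cells were far deeper, with medians of 57937.5 and 41109 UMIs against 7204.5 and 4112 UMIs for glia-like cells.

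Neuron-like cells carried far more Cntnap1 and Cntn2 than glia-like cells in both libraries, and far less Cadm4. Nrcam and Nfasc were higher in neuron-like cells of library 2 and within 2-fold in library 3. Cadm1 and Cadm3 were within 2-fold in both with all glia-like cells pooled. In library 2 both passed it against myelinating-type glia alone. With barcodes limited to 10% mitochondrial UMIs they also did, at log2 ratios of 1.14 and -2.95. Of the 9 genes, 4 were higher and 2 lower in neuron-like cells of library 2, where 33.6% of 12203 tested genes were higher and 22.6% lower. In library 3, 4 were higher and 1 lower, beside 22.2% and 27.1% of 11328 genes. The median log2 ratio of the 9 genes was 0.64 in library 2 and 0.33 in library 3, beside 0.34 and -0.05 over all tested genes.

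**Figure D1:**
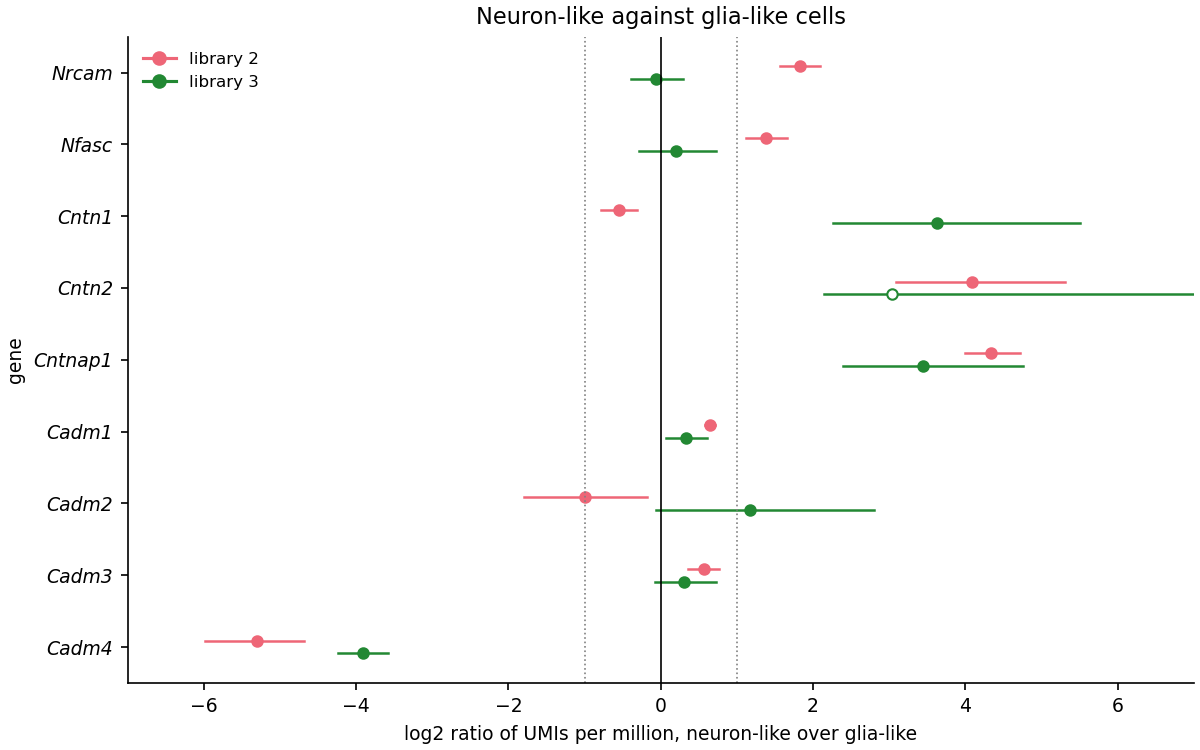
Log2 ratio of the level in neuron-like to glia-like cells for each of the 9 genes in libraries 2 and 3 (points), with exact 95% intervals from the UMI counts (lines); an open point has fewer than 3 UMIs on a side and is placed with the floor of 3. Cntnap1 and Cntn2 lie to the right and Cadm4 to the left in both libraries, while Nrcam, Nfasc, Cntn1 and Cadm2 sit at different places in the 2 libraries.

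Cntnap1, the axonal partner of contactin-1 at the paranode, stood at 106 CPM (95% interval 103 to 109) in neuron-like cells of library 2 and at 5.22 CPM in glia-like cells, a log2 ratio of 4.34 (3.99 to 4.72). In library 3 it stood at 41.6 CPM and 3.83 CPM, a log2 ratio of 3.44 (2.40 to 4.76). Macrophage-like cells held 8.69 CPM in library 2 and 4.06 CPM in library 3, so the glial level of Cntnap1 was no higher than the free RNA level. Mural-like cells of library 2, also without a neuronal identity, held 23.6 CPM (14 UMIs). In libraries 1 and 4, which had almost no neuron-like cells, glia-like cells held 1 UMI (1.73 CPM) and 18 UMIs (0.350 CPM) of the gene.

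Cntn1 did not follow its partner in library 2. In library 3 it was a gene of neuron-like cells, at 27.0 CPM (25.8 to 28.3) against 2.19 CPM from 4 UMIs in glia-like cells, a log2 ratio of 3.63 (2.27 to 5.50). In library 2 glia-like cells were the higher side, at 18.1 CPM (15.8 to 20.6) against 12.3 CPM (11.3 to 13.5), a log2 ratio of -0.55 (-0.78 to -0.32) that stayed under 2-fold. The ratio was -0.03 without the deepest 5% of cells and 0.08 as a mean of the cells' own CPM. Against myelinating-type glia alone it was 1.62, higher in neuron-like cells. The other alternatives kept glia-like cells of library 2 as the higher side. Macrophage-like cells of library 2 held 0 UMIs of Cntn1, which allows up to 3.73 CPM, so the glial level there lay above the free RNA level. The counts of the 2 partners also stood in different proportion on the 2 sides of library 2, with 481 UMIs of Cntn1 and 4133 of Cntnap1 in neuron-like cells and 225 and 65 in glia-like cells. In libraries 1 and 4 glia-like cells held 8.64 CPM (5 UMIs) and 0.466 CPM (24 UMIs) of Cntn1.

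Both genes of the paranodal complex were found together in many neuron-like cells. In library 3 at least 1 UMI of each was seen in 42.8% of 1737 neuron-like cells, Cntn1 alone in 15.1% and Cntnap1 alone in 22.8%. In library 2 the shares were 27.7%, 1.87% and 51.2% of 748 cells. Cells with both made up 0.743% of glia-like cells in library 2 and 0 of 396 in library 3, at the lower depth of those cells.

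Cntn2, the juxtaparanodal contactin, stood at 10.9 CPM (9.91 to 12) in neuron-like cells of library 2 and at 0.642 CPM (8 UMIs) in glia-like cells, a log2 ratio of 4.09 (3.1 to 5.31). In library 3 neuron-like cells held 13.5 CPM (12.6 to 14.4), and glia-like cells 1 UMI, a log2 ratio of 4.62 (2.14 to 9.93). Macrophage-like cells held 0 UMIs and 1 UMI in these libraries. Cntn2 was thus close to 0 in glia-like cells of every library, with 0, 8, 1 and 2 UMIs in libraries 1 to 4, of which the 0 allows up to 5.18 CPM. The protein itself is known from both membranes of the juxtaparanode. Fibroblast-like cells of library 1 held 135 UMIs of Cntn2 (2.42 CPM, 2.03 to 2.86). Mural-like cells of library 4 held 7.52 CPM (2.44 to 17.5), the highest level among the classes ranked in that library.

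Nrcam, which helps to gather sodium channels at the node, stood at 37.9 CPM (36 to 39.8) in neuron-like cells of library 2 and at 10.7 CPM (8.94 to 12.7) in glia-like cells. In library 3 the levels were 39.3 CPM (37.8 to 40.8) and 41.0 CPM (32.3 to 51.4). The log2 ratios were 1.83 (1.57 to 2.09) and -0.06 (-0.39 to 0.29). Nfasc stood at 27.2 CPM (25.6 to 28.9) and 10.4 CPM (8.72 to 12.4) in library 2 and at 21.9 CPM (20.8 to 23.1) and 19.1 CPM (13.3 to 26.6) in library 3. Its log2 ratios were 1.38 (1.12 to 1.66) and 0.20 (-0.29 to 0.72). Counting at the 3′ end of transcripts does not tell the axonal from the glial isoform of neurofascin, so these levels add them up.

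The ratios of Nrcam and Nfasc in library 2 changed with the choice of cells and of the mean. Against myelinating-type glia alone, defined below, the log2 ratios of Nrcam and Nfasc in library 2 were -0.98 and -2.47, that is, lower in neuron-like cells. With barcodes limited to 10% mitochondrial UMIs, which left 357 neuron-like and 323 glia-like cells, they were -0.68 and -2.08. Nfasc came under 2-fold as a mean of the cells' own CPM, at 0.48, and against glia with at most 3 neuron markers, at 0.99, where Nrcam stayed past it at 1.27 and 1.32. In library 3, myelinating-type glia also held more of both genes than neuron-like cells did, at 89.9 and 66.4 CPM.

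Among the internodal proteins, Cadm4 was the gene of the glia side. Glia-like cells held 58.8 CPM (34 UMIs), 23.3 CPM (290 UMIs), 58.5 CPM (107 UMIs) and 193 CPM (9937 UMIs) in libraries 1 to 4. Neuron-like cells held 0.590 CPM (0.374 to 0.885) in library 2 and 3.88 CPM (3.43 to 4.38) in library 3. The log2 ratios were -5.30 (-5.98 to -4.69) and -3.91 (-4.24 to -3.58). A UMI of Cadm4 was seen in 3.07% and 13.5% of neuron-like cells at their far greater depth, with at most 1 UMI in a cell of library 2 and 4 in a cell of library 3.

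Cadm3, its axonal partner, was not limited to neuron-like cells. It stood at 29.2 CPM (27.5 to 30.9) in neuron-like and 19.7 CPM in glia-like cells of library 2, and at 36.6 CPM (35.2 to 38.1) and 29.5 CPM in library 3, with log2 ratios of 0.56 (0.36 to 0.77) and 0.31 (-0.08 to 0.73). In libraries 1 and 4, with almost no neuron-like cells, glia-like cells held 232 CPM (134 UMIs) and 133 CPM (6850 UMIs). Cadm3 in glia-like cells was therefore measured where neuronal markers summed to 38.0 and 121 CPM. Between 45.2% and 51.5% of glia-like cells held a UMI of Cadm3 in libraries 1 and 4, and 10.8% and 3.12% of macrophage-like cells. Against myelinating-type glia alone, the log2 ratio of Cadm3 was -3.08 in library 2, from 29.2 against 247 CPM, and 0.06 in library 3. Against all glia-like cells of library 2 it was -2.95 with barcodes limited to 10% mitochondrial UMIs. As a mean of the cells' own CPM it was -0.48 there.

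Cadm1 was within 2-fold between the sides, at 291 CPM (286 to 296) in neuron-like and 187 CPM in glia-like cells of library 2, and 82.7 CPM (80.6 to 84.9) and 65.6 CPM in library 3. Against myelinating-type glia alone, with 68.1 CPM in library 2, its log2 ratio there was 2.10. Against all glia-like cells of library 2 it was 1.14 with barcodes limited to 10% mitochondrial UMIs. Macrophage-like cells held 53.4 CPM of Cadm1 in library 2 and 2.03 CPM (1 UMI) in library 3. Cadm2 was scarce and turned with the library: 0.923 CPM (36 UMIs) in neuron-like against 1.85 CPM (23 UMIs) in glia-like cells of library 2, and 6.16 CPM (417 UMIs) against 2.73 CPM (5 UMIs) in library 3. Its log2 ratios were -1.0 (-1.79 to -0.18) and 1.17 (-0.06 to 2.80). The second interval reaches 0, the first lies at the 2-fold limit, and 6 alternatives in library 2 and 7 in library 3 brought the ratio under 2-fold.

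**Figure D2:**
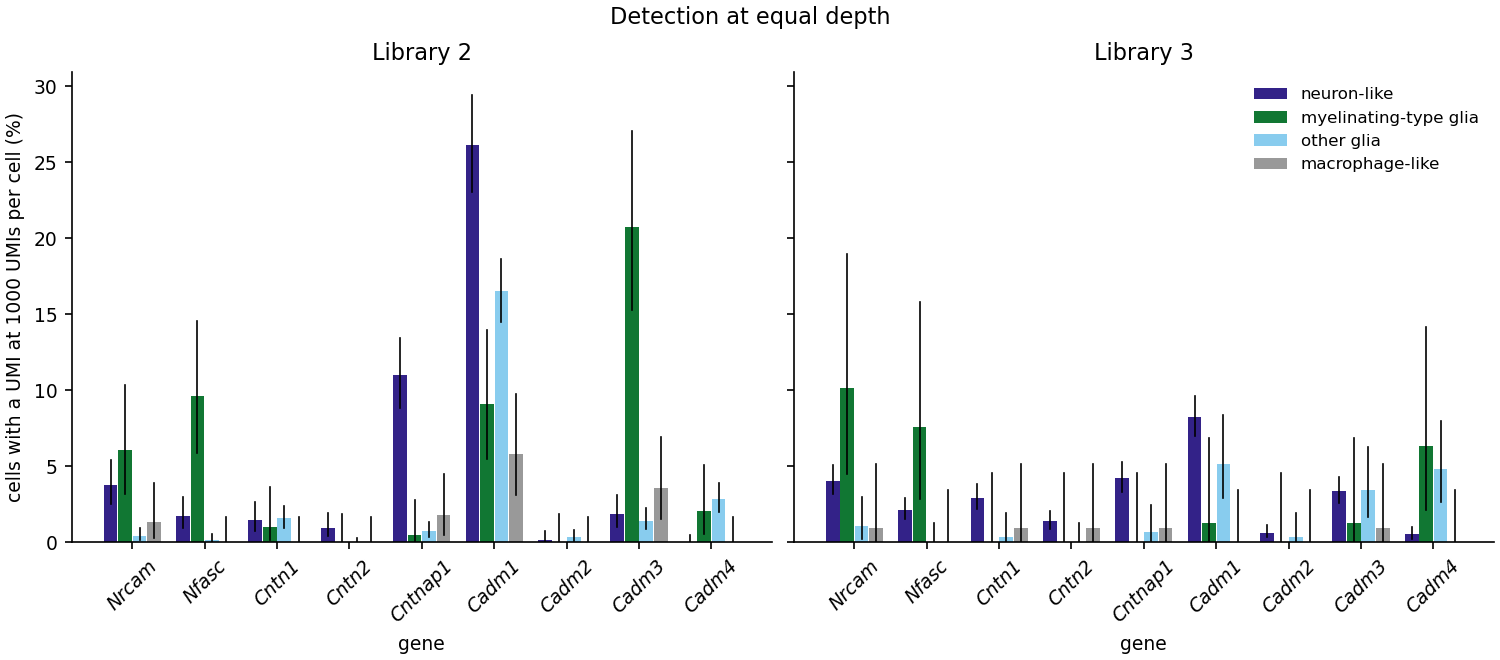
Share of neuron-like cells, myelinating-type glia, other glia (both glial kinds are defined further on) and macrophage-like cells with at least 1 UMI of each gene after every cell was thinned to 1000 UMIs, in libraries 2 and 3, with exact 95% intervals (lines). Cntnap1 is highest in neuron-like cells in both panels, Nrcam and Nfasc in myelinating-type glia, and Cadm4 in the glial classes. The bar of Cadm3 in myelinating-type glia reaches 20.7% in library 2 and 1.27% in library 3.

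Depth changed the shares of cells in which the genes were seen. Cntnap1 was found in 78.9% of neuron-like and 4.32% of glia-like cells of library 2. Thinning to 1000 UMIs per cell left out 2 neuron-like, 4 glia-like and 3 macrophage-like cells of library 2 that were shallower. The shares were then 11% (8.84% to 13.5%) and 0.678% (0.325% to 1.24%), with 1.79% of macrophage-like cells. Cadm1 was found in 86.9% and 64.7% of the same cells before thinning, and in 26.1% and 15.5% after it. Cadm3 went the other way: 36.6% of neuron-like and 9.66% of glia-like cells of library 2 held a UMI, and at equal depth 1.88% (1.03% to 3.13%) and 4.0% (3.06% to 5.13%). For Cntn1, 29.5% and 12.8% became 1.47% (0.738% to 2.62%) and 1.49% (0.936% to 2.25%). Cadm4 was found in 2.71% of glia-like cells of library 2 at equal depth and in 0 of the neuron-like cells, with an exact upper limit of 0.493%.

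Within the neuron-like cells the UMIs were spread unevenly for some genes. The tenth of neuron-like cells with the most UMIs of the gene held 65.2% of the Cadm3 UMIs and 63.6% of the Cntn1 UMIs in library 2, and 34.7% and 36.8% in library 3. For Cntnap1 this share was 32.0% and 39.2%, for Nrcam 49.2% and 37.7%, and for Nfasc 47.2% and 48.5%. The share also depends on the depth of the cells and on how many UMIs a gene gave. In the 748 neuron-like cells of library 2 there were 481 UMIs of Cntn1 and 4133 of Cntnap1. The part of depth and of UMI number was not tested. The highest count in 1 neuron-like cell of library 2 was 105 UMIs of Cadm1, 39 of Cadm3, 32 of Cntnap1, 24 of Cntn1 and 1 of Cadm4.

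Glia-like cells were then split by their myelin program. Myelinating-type glia drew at least 3% of their UMIs from 9 myelin genes such as Mbp, Prx and Pmp2, and other glia less than 2%. They numbered 22, 200, 79 and 163 against 152, 1280, 290 and 5697 in libraries 1 to 4, with 3, 0, 27 and 99 glia-like cells between the limits. Median depth was 3226, 3222.5, 6052 and 11648 UMIs in myelinating-type and 2869, 8072.5, 3779 and 7345 UMIs in other glia. Nrcam and Nfasc were higher in myelinating-type glia of libraries 2, 3 and 4, where they could be tested. Cntn1, Cntn2 and Cntnap1 gave at most 4 UMIs each in myelinating-type glia of any library.

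Nrcam stood at 90.5, 74.7, 89.9 and 112 CPM in myelinating-type glia of libraries 1 to 4 and at 8.12, 6.58, 19.5 and 9.21 CPM in other glia. The myelinating-type value was the higher inside each library, from few UMIs in library 1. Log2 ratios were 3.51 (2.98 to 4.02), 2.20 (1.45 to 2.99) and 3.61 (3.36 to 3.84) in libraries 2, 3 and 4. Library 1 gave 7 and 4 UMIs, under the minimum of 20 for a call. Macrophage-like cells held 0.382, 7.45, 4.06 and 0.769 CPM of Nrcam in libraries 1 to 4. Other glia thus lay above them in libraries 1, 3 and 4 and not in library 2, with intervals that overlap in library 3 (12.4 to 29.3 against 0.492 to 14.7 CPM). In library 2 the macrophage-like value came from 6 UMIs (2.73 to 16.2 CPM). Endothelial-like cells there held 1.38 CPM (0.448 to 3.22), fibroblast-like 2.33 CPM (0.939 to 4.81) and mural-like 5.05 CPM (1.04 to 14.8). These lay under the 6.58 CPM (5.19 to 8.22) of other glia. In myelinating-type glia of library 4, 61.3% of cells held a UMI, against 6.65% of other glia.

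Nfasc stood at 181, 151, 66.4 and 21.0 CPM in myelinating-type glia of libraries 1 to 4. In other glia it stood at 1.45, 0.849 and 0.577 CPM in libraries 2 to 4, from 17, 1 and 28 UMIs, and was at 0 UMIs in library 1, which allows up to 6.09 CPM. Log2 ratios were 6.70 (5.96 to 7.53), 6.29 (3.71 to 11.64) and 5.19 (4.46 to 5.94) in libraries 2, 3 and 4. Library 1 gave 14 UMIs against 0 and no call. Macrophage-like cells held 0.255, 2.48, 4.06 and 0.769 CPM of Nfasc in libraries 1 to 4, from 1 or 2 UMIs each, and the level in other glia was above these in none of the 4.

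**Figure D3:**
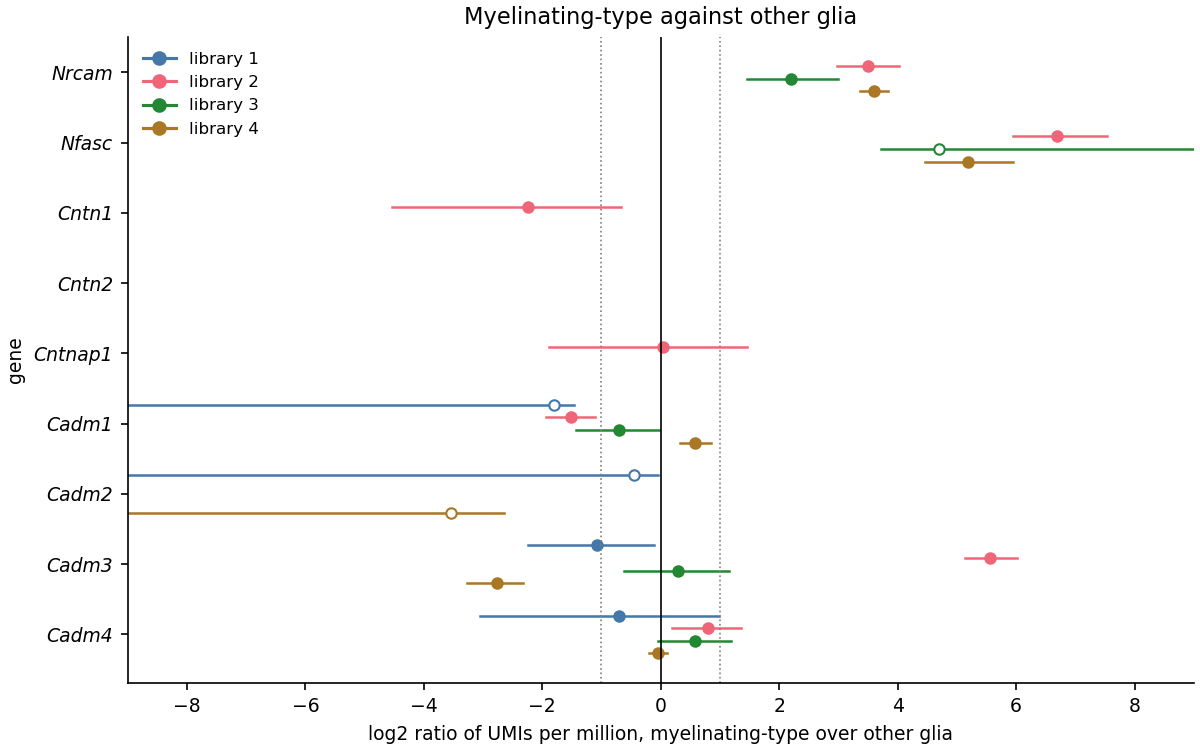
Log2 ratio of the level in myelinating-type glia to other glia for each gene tested in libraries 1 to 4 (points), with exact 95% intervals (lines, cut at the edge of the plot where they run on); an open point has fewer than 3 UMIs on a side and is placed with the floor of 3. Nrcam and Nfasc lie to the right in libraries 2, 3 and 4, Cadm4 lies near 0, and Cadm3 is far right in library 2 and left in libraries 1 and 4.

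A gene was also left untested where the floor of 3 UMIs would have lifted the poorer side above the richer, as for Cadm2 in library 2 (0 against 23 UMIs) and Cntn1 in library 4 (0 against 24). Of the members that could be tested, 0 of 4 were higher and 2 lower in myelinating-type glia of library 1, 3 and 2 of 7 in library 2, 2 and 0 of 5 in library 3, and 2 and 2 of 6 in library 4. Over all tested genes, 6.33% were higher and 14.0% lower in library 1, 13.0% and 13.2% in library 2, 3.87% and 19.4% in library 3, and 6.87% and 16.1% in library 4. The paranodal and juxtaparanodal axonal genes were seen rarely in myelinating-type glia: Cntn1 had 0, 3, 0 and 0 UMIs in libraries 1 to 4, Cntnap1 had 0, 4, 2 and 0, and Cntn2 had 0 in each. A count of 0 allows up to 38.8 CPM in library 1 and up to 1.58 CPM in library 4, and the 4 UMIs of Cntnap1 in library 2 made 5.34 CPM beside 5.21 CPM in other glia. For Cntn1 in library 2 this made a log2 ratio of -2.24 (-4.53 to -0.68).

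Cadm4 was carried by both kinds of glia-like cell. Its levels were 38.8, 38.7, 76.2 and 188 CPM in myelinating-type and 62.9, 22.3, 50.9 and 193 CPM in other glia, with log2 ratios of -0.70 (-3.05 to 0.98), 0.80 (0.19 to 1.35), 0.58 (-0.04 to 1.19) and -0.04 (-0.20 to 0.11). None of these passed 2-fold.

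Cadm3 differed between the libraries. It was higher in myelinating-type glia of library 2, at 247 CPM (213 to 285) against 5.21 CPM (3.98 to 6.69), a log2 ratio of 5.57 (5.14 to 6.01). It was lower in library 4, at 20.5 CPM (14.6 to 28.1) against 140 CPM (137 to 144), a log2 ratio of -2.77 (-3.27 to -2.32). In library 1 it stood at 116 CPM (9 UMIs) and 246 CPM, a log2 ratio of -1.08 (-2.24 to -0.11) that was -0.70 with classes from Leiden clusters, and in library 3 at 35.2 and 28.9 CPM, within 2-fold. The 5.21 CPM of other glia in library 2 lay under the 32.3 CPM of macrophage-like and the 94.7 CPM of fibroblast-like cells there. Endothelial-like cells of library 2 held 3.59 CPM (1.91 to 6.14) and mural-like cells 3.37 CPM (0.408 to 12.2), so the background of Cadm3 differed between classes. The other glia were not alike between the libraries: their 6 satellite glial markers, described further on, summed to 18431, 82837, 7820 and 452 CPM in libraries 1 to 4, and the part of this in the opposite ratios was not tested.

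Cadm2 was lower in myelinating-type than in other glia of library 4. Other glia held 26 UMIs (52.8 CPM) in library 1 and 896 UMIs (18.4 CPM) in library 4, and myelinating-type glia 0 UMIs and 1 UMI. In library 4 the log2 ratio was -5.13 (-10.44 to -2.65). In library 1 the 0 UMIs allow up to 38.8 CPM, so no 2-fold difference could be shown at this depth. Cadm1 was lower in myelinating-type glia of library 2 at 68.1 against 194 CPM, a log2 ratio of -1.51 (-1.94 to -1.11). It was also lower in those of library 1, at 0 against 67 UMIs. With the floor of 3 UMIs this made a log2 ratio of -1.81, and the exact interval reached up to -1.47. In libraries 3 and 4 Cadm1 was within 2-fold, with log2 ratios of -0.70 (-1.43 to -0.02) and 0.59 (0.32 to 0.84).

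Other glia with 3 or more of 6 satellite glial markers such as Fabp7 and Kcnj10, called satellite-marker glia, numbered 748 in library 2 and 281 in library 4, and 12 in each of the other libraries. Satellite glia are the cells that sheathe the neuronal cell body in the ganglion. The 6 markers summed to 89692 CPM in these cells of library 2 and to 1002 CPM in library 4, so the cells of library 4 hold the markers only at low levels and are named here by the rule alone. In library 2 they held Cntn1 at 19.1 CPM (16.4 to 22.1) and the remaining glia held 18.5 CPM (13.5 to 24.7), against 4.0 CPM in myelinating-type glia. Cadm1 was at 196 CPM in satellite-marker and 187 CPM in remaining glia of library 2. Cadm3 was at 1.73 CPM (0.992 to 2.82) in satellite-marker and 18.1 CPM (13.2 to 24.2) in remaining glia of library 2. In library 4 the order of the Cadm3 levels was the reverse, with 222 CPM (208 to 237) and 133 CPM (130 to 136), and Cadm2 stood at 36.8 CPM (31.0 to 43.3) and 16.9 CPM (15.7 to 18.1). Satellite-marker glia were also the deeper cells, with medians of 10190 and 11995 UMIs against 3978 and 7271 UMIs for the remaining glia of libraries 2 and 4.

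Neuron-like cells were split into A-fibre-type cells, with at least 3 of 8 markers of large myelinated afferents such as Nefh and Ntrk3, and C-fibre-type cells, with at least 3 of 10 markers of small afferents such as Calca and Trpv1. Most A-fibres are myelinated and most C-fibres are not. Library 3 gave 103 A-fibre-type and 1223 C-fibre-type cells. Library 2 gave 8 and 509, too few for a comparison. The A-fibre-type cells of library 3 had a median depth of 53686 UMIs and 15.5% mitochondrial UMIs, against 42911 UMIs and 9.22%, and the part of this difference in the results was not tested. At a mitochondrial limit of 10% only 7 A-fibre-type cells remained.

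Nfasc and Cntnap1, of the node and the paranode, were higher in A-fibre-type cells, and the other 7 genes were within 2-fold. Over all 12060 tested genes, 10.9% were higher and 8.44% lower. Nfasc stood at 67.7 CPM (353 UMIs) against 16.8 CPM (848 UMIs), a log2 ratio of 2.01 (1.83 to 2.19). Cntnap1 stood at 96.7 CPM (504 UMIs) against 34.8 CPM (1759 UMIs), a log2 ratio of 1.47 (1.33 to 1.62). Their paranodal partner Cntn1 stood at 37.0 and 26.1 CPM, a log2 ratio of 0.50 (0.28 to 0.72), and Nrcam at 45.5 and 37.2 CPM, a log2 ratio of 0.29 (0.09 to 0.49). Cntn2 was at 13.8 and 13.5 CPM. Cadm3 was at 49.5 and 35.9 CPM, Cadm1 at 66.9 and 87.6 CPM, Cadm2 at 3.64 and 5.88 CPM and Cadm4 at 3.26 and 3.90 CPM.

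**Figure D4:**
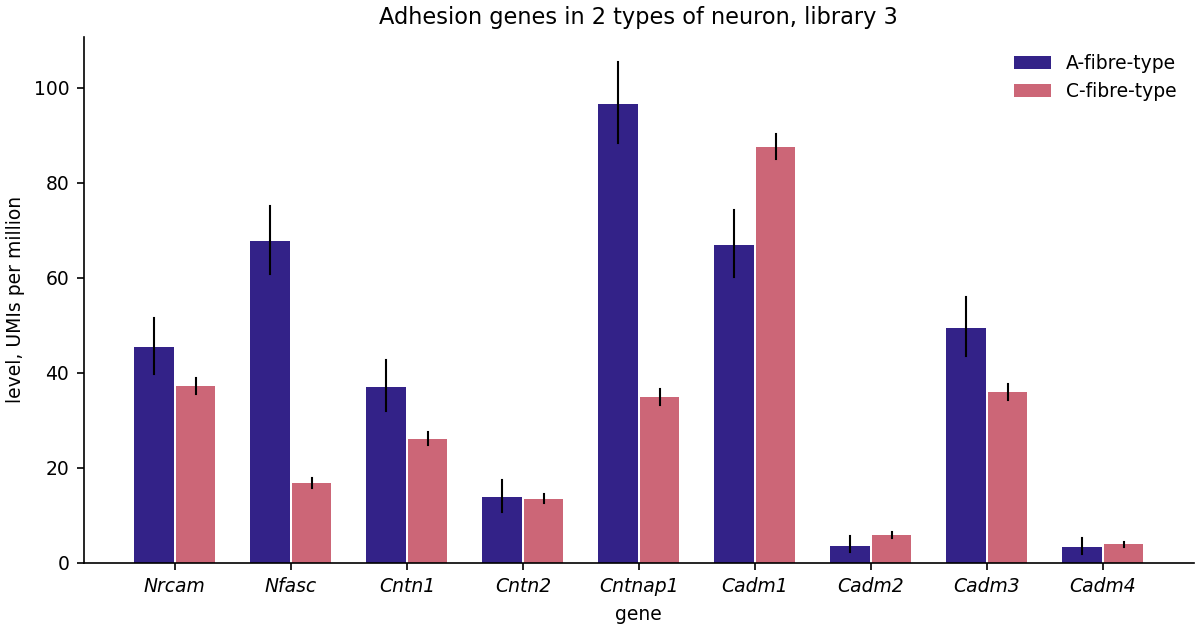
Level of each gene (bars, CPM) in 103 A-fibre-type and 1223 C-fibre-type neuron-like cells of library 3, with exact 95% intervals (lines). The bars of Nfasc and Cntnap1 are clearly apart, at 67.7 against 16.8 CPM and 96.7 against 34.8 CPM; bars of different genes are not to be compared, since capture differs between genes.

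Cntn1 and Cntnap1 were seen together in 71.8% of A-fibre-type and 43.7% of C-fibre-type cells of library 3, at the depths given above. Nfasc was seen in 86.4% of A-fibre-type and 46.4% of C-fibre-type cells. At equal depth the shares for Nfasc were 6.80% (2.78% to 13.5%) and 1.55% (0.938% to 2.42%), and for Cntnap1 8.74% (4.07% to 15.9%) and 4.25% (3.19% to 5.54%).

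Set against fibroblast-like cells, a class without a part in the axon contact, glia-like cells held more of most members. The counts were 6 higher and 0 lower of 7 tested genes in library 1, 5 and 1 of 8 in library 2, 4 and 0 of 7 in library 3, and 6 and 1 of 8 in library 4. Over all tested genes, 27.5% were higher and 12.8% lower in library 1, 14.3% and 15.7% in library 2, 11.3% and 17.8% in library 3, and 16.3% and 17.0% in library 4. Cadm1, Cadm4, Nrcam and Nfasc were higher in glia-like cells of all 4 libraries. The share of all genes higher in all 4 was not computed for this comparison, so this count has no background beside it. The log2 ratios ran from 3.0 to 9.68 for Cadm1, from 4.54 to 7.16 for Cadm4, from 2.19 to 5.20 for Nrcam and from 1.8 to 3.82 for Nfasc. Cntn1 was higher in glia-like cells of libraries 1 and 2, at 4.33 (2.58 to 5.75) and 4.76 (2.89 to 7.81), and within 2-fold in libraries 3 and 4. Cntnap1 was the gene lower in library 4, at 0.350 against 2.27 CPM, a log2 ratio of -2.70 (-3.61 to -1.83). For Nfasc in library 4, with 5 UMIs in fibroblast-like cells, the ratio of 1.98 was 0.82 against the 352 fibroblast-like cells without a perineurial marker.

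Cadm3 varied with the library. Fibroblast-like cells held 164 CPM (160 to 167), 94.7 CPM (84.0 to 106), 20.5 CPM (17.6 to 23.7) and 19.2 CPM (17 to 21.6) in libraries 1 to 4, and glia-like cells 232, 19.7, 29.5 and 133 CPM. The log2 ratio was 0.50 (0.24 to 0.75), -2.26 (-2.51 to -2.01), 0.53 (0.06 to 0.97) and 2.79 (2.62 to 2.97). In library 2 the ratio turned to 0.59 with barcodes limited to 10% mitochondrial UMIs and was -0.89 as a mean over cells. In library 1, 40.3% of fibroblast-like cells held a UMI of Cadm3, against 10.8% of macrophage-like cells, in a library with 0 neuron-like cells.

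**Figure D5:**
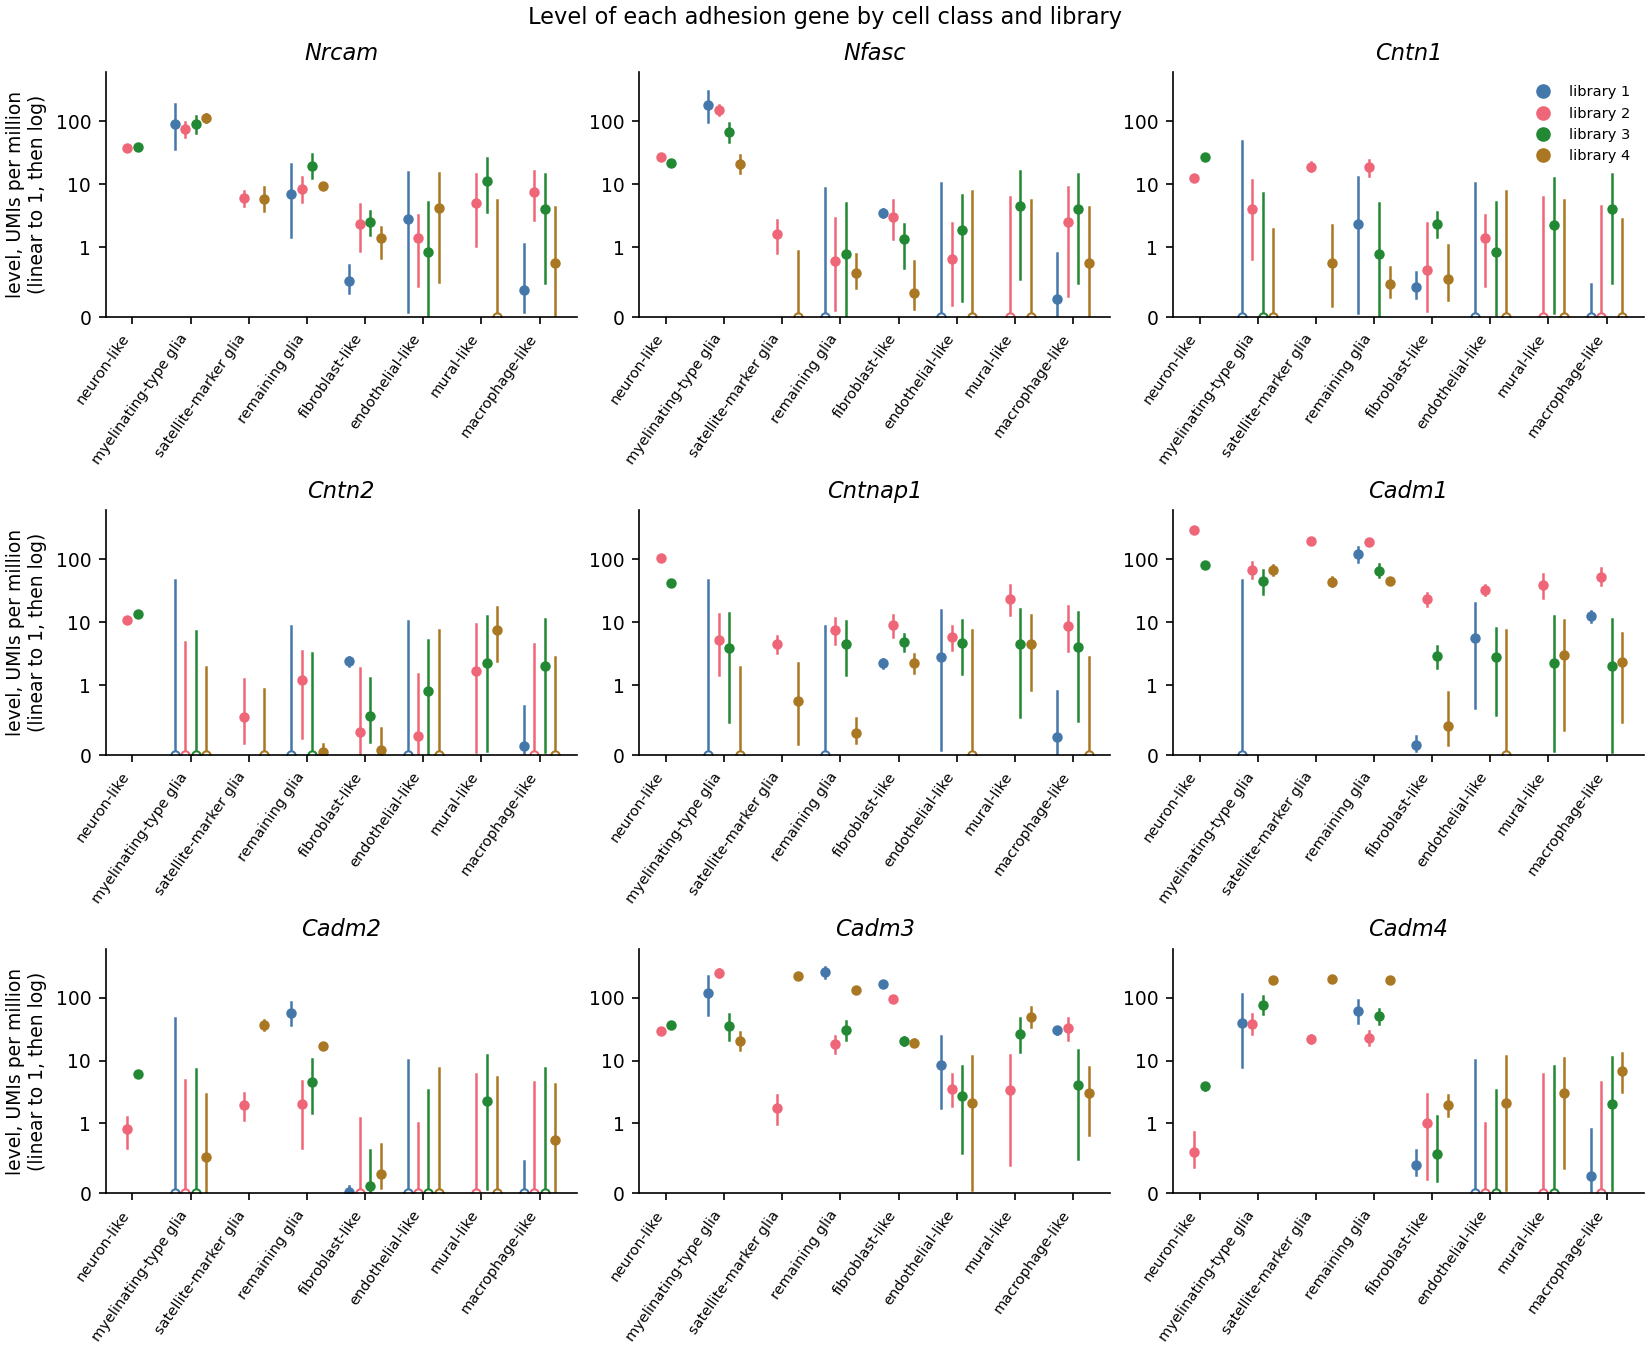
Level of each gene (points, CPM, an axis that is linear to 1 and logarithmic above) by cell class, coloured by library, with exact 95% intervals (lines). Cadm4 stands apart in the glial columns of every library, Cntnap1 and Cntn2 in neuron-like cells, Nrcam and Nfasc in neuron-like cells and myelinating-type glia, and Cadm3 is spread over neuron-like, glial and fibroblast-like columns.

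Of 59 other gene symbols of the node, paranode, juxtaparanode, internode and Schwann cell surface, 56 were in the gene table. The list holds Slc9a3r1 and Nherf1, an older and a newer symbol of the same gene. In library 2, 23 of 52 tested were higher and 21 lower in neuron-like cells, with a median log2 ratio of 0.34. In library 3, 17 and 21 of 53 were, with a median of 0.08. The shares over all tested genes are those given with the 9 members. Of the 52 genes tested in both libraries, 15 were higher and 17 lower in both, beside 18.3% and 16.6% of the 10974 genes tested in both.

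Channels, scaffolds, adhesion molecules and secreted ligands were among the genes higher in neuron-like cells of both libraries. Scn10a, Scn9a and Scn1a are sodium channel alpha subunits, with log2 ratios of 4.18 to 5.05, 3.74 to 4.55 and 2.87 to 4.55. Sptbn4, the spectrin under the nodal membrane, ranged from 2.34 to 4.29, and Ank2, an ankyrin of axons, from 3.0 to 3.20. L1cam, a relative of Nrcam and Nfasc, ranged from 2.05 to 3.31, and Nectin1 from 1.69 to 2.61. Lgi2 (2.74 to 4.35) and Lgi3 (2.06 to 3.42), secreted ligands of the ADAM22 family, and the scaffold Dlg4 (2.51 to 3.15) went the same way.

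Among the genes lower in neuron-like cells of both libraries were several of the myelin sheath. Mag, the internodal adhesion protein of myelin, had log2 ratios of -9.62 to -7.82, and Cldn19, the tight junction protein of its loops, -10.36 to -6.83. Gldn, the glial ligand of Nrcam and Nfasc at the node, ranged from -8.47 to -4.29. Gjb1, the gap junction protein connexin of myelin, ranged from -6.66 to -5.61, and Lgi4, which glia secrete for myelination, from -5.32 to -4.82. Dag1, the laminin receptor dystroglycan, ranged from -4.35 to -3.94, Epb41l2 from -5.96 to -5.73, Sdc4 from -5.11 to -4.27, Slc9a3r1 from -4.83 to -4.27, and Bmp1 from -4.66 to -4.63.

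In myelinating-type against other glia, 28 of the 56 genes could be tested in all 4 libraries, and 5 of them were higher and 2 lower in all 4. Of the 3237 genes of the whole table tested in all 4, 1.39% were higher and 3.49% lower in all. Gldn was among the higher, with log2 ratios from 2.21 to 10.24, as were Cldn19 (2.47 to 7.94), Mpp6, a scaffold (2.25 to 5.03), Gjb1 (2.09 to 5.05) and Utrn, the dystrophin relative utrophin (1.39 to 2.31). Chl1, the close homologue of L1, had log2 ratios from -4.01 to -2.14 and Ncam1 from -4.15 to -1.93. The juxtaparanodal potassium channel genes Kcna1 and Kcna2 were higher in myelinating-type glia of libraries 2, 3 and 4, with log2 ratios of 5.70, 3.92 and 5.79 for Kcna1 and 3.32, 2.78 and 4.4 for Kcna2.

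In A-fibre-type against C-fibre-type cells, 14 of 52 tested pathway genes were higher and 4 lower. Over all 12060 tested genes, 10.9% were higher and 8.44% lower. The 2 sides differed in depth and mitochondrial share as given above, and the part of this was not tested. Lgi3 (5.37), Scn4b (4.52), Kcnq3 (4.28), Kcna1 (3.84), Scn1a (3.39) and Sptbn4 (1.89) were among the higher, by their log2 ratios. Scn10a, the sodium channel of nociceptors, was lower at -3.60, and Chl1 at -3.27.

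Likeness of pattern was read as the Pearson correlation of log2(CPM + 1) over 19 units, each a class of at least 50 cells in 1 library, among 13814 genes. The units share libraries, depth and background RNA, and the values describe these units only. Nrcam was most like Frmd3 (0.948), Nfasc most like Aacs (0.888), Cntn1 most like Acsl6 (0.953) and Cntn2 most like Kcnq5 (0.856). Cntnap1 was most like the potassium channel genes Kcnd1 (0.953) and Kcnab1 (0.950). Cadm1 was most like Tmem229a (0.909), Cadm2 most like Scn7a (0.914), which is a marker of nonmyelinating glia in the fixed lists, and Cadm3 most like Sapcd1 (0.813). Cadm4 was most like Atp10b (0.965) and the myelin gene Pmp2 (0.954), which helped to define myelinating-type glia.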

How the data were processed

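The deposited matrix held whole-number UMI counts of 25399 genes in 41444 barcodes, made with Cell Ranger 3.1.0, per the file headers. Seurat, CASAVA 1.8 and the build Rnor_6.0 are listed without a role, per the submitters' processing notes. No gene row was blank. Barcodes with at least 500 genes and at most 20% mitochondrial UMIs were kept. Cells were classed by fixed marker lists (a marker at 2 UMIs, 3 markers for a class, 8 for neurons, at least 2 times any other class). These limits were set after the data were seen. Of 8012 glia-like cells, 7988 lay in glial clusters of a Leiden clustering.

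In each library the UMIs of a class were summed and scaled to CPM. Ratios used a floor of 3 UMIs, sides of at least 20 cells and genes with 20 UMIs on a side. A gene was not tested where a side under the floor would come out higher once raised to it. With 1 to 3 UMIs on a side the ratio is given without the floor. Intervals are exact (Poisson, Clopper-Pearson, 95%). The CPM that a count of 0 is said to allow is that of 3 UMIs, which lies under the upper end of the exact interval. For Cntn1 in myelinating-type glia of library 1 these were 38.8 and 47.7 CPM. On simulated counts the script called nearly all of the 4-fold changes it was given. The changed genes had at least 20 expected UMIs on each side, and the counts held counting error only. Ratios from fewer UMIs on a side were therefore not covered by this check. Thinning drew 1000 UMIs per cell and left out shallower cells. The 20 alternatives covered the gates, filters, scaling, floor and threshold.

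The 9 genes, markers and lists were chosen with earlier results of these data known. All 9 were named in every comparison. Of the pathway list, the up to 10 genes a direction with the largest smallest ratio over all libraries were named, and Kcna1 and Kcna2 in glia were named after their values were seen. Promoters came from RefSeq (GRCr8). Scripts used scipy 1.17.1, numpy 2.4.6, leidenalg 0.10.2, igraph 0.11.9, scikit-learn 1.9.0, pandas 2.3.3 and matplotlib 3.10.9 under Python 3.11.15.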

Additional observations from a re-analysis of the deposited data

Results flagged for a closer look

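In 3 comparisons a gene passed 2-fold in opposite directions in different libraries. The difference between libraries was not tested in any of them, since each library is a group of its own. Cadm2 in neuron-like against glia-like cells had a log2 ratio of 1.17 in library 3, from 5 glial UMIs, and of -1.0 in library 2. Cadm3 in myelinating-type against other glia had log2 ratios of 5.57 in library 2, -1.08 in library 1 and -2.77 in library 4. The value of library 1 rests on 9 UMIs in myelinating-type glia and was -0.70, within 2-fold, with classes from Leiden clusters. Cadm3 in glia-like against fibroblast-like cells had log2 ratios of 2.79 in library 4 and -2.26 in library 2.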

How the results depend on the processing

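Of 575 values of the 49 called ratios of the 9 genes under the alternatives, 570 kept their sign and 552 stayed past 2-fold. A minimum of 1 UMI or of 100 UMIs changes only which genes are tested, so a ratio could not move under it. A floor of 1 UMI acts only on sides below the main floor. Part of the 570 and of the 552 values therefore agreed by construction, and these counts overstate how stable the ratios are. The 5 that turned were Nrcam and Nfasc in neuron-like against glia-like cells of library 2, at -0.68 and -2.08 with a mitochondrial limit of 10% and at -0.98 and -2.47 with myelinating-type glia as the glia side, and Cadm3 in glia-like against fibroblast-like cells of library 2, at 0.59 with a limit of 10%. The cause was not tested.

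Counts of members moved as follows. For neuron-like against glia-like cells of library 2, 1 gene was lower, not 2, with classes from Leiden clusters, without the deepest 5% of cells, at a minimum of 100 UMIs, at 4-fold, at neuron gates of 3, 6 and 12 markers, and with glia of at most 3 neuron markers; at 4-fold 2 were higher. Against myelinating-type glia 3 were lower in each of libraries 2 and 3. Pathway genes higher were 15 in library 2 at 10% and 10 in library 3 at 4-fold. For myelinating-type glia, 1 was higher in library 1 with Leiden clusters and 2 at a minimum of 1 UMI, 1 was lower there at 100 UMIs and 0 at 4-fold. In library 2, 1 was lower at 10% and at 4-fold. In library 3, 0 were higher at 100 UMIs and 1 was lower with the myelin limit at 6%. In library 4, 1 was higher at 10% and at 100 UMIs. For A-fibre-type cells, 1 was lower without the deepest 5% and 1 higher at 4-fold. For glia-like against fibroblast-like cells, 0 were lower in library 2 at 10% and as a mean over cells, 1 was lower in library 3 as a mean over cells, 1 and 2 were higher in libraries 1 and 3 at 100 UMIs, and 0 were lower in library 4 at 100 UMIs. A higher minimum leaves fewer genes tested.

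Not run for want of 20 cells on a side were myelinating-type glia of library 1 with 4 markers (18 cells) and at 10% (18 cells), and A-fibre-type cells at 10% (7 cells). No paired analysis was possible because each group had 1 library and no barcode suffix could be tied to a group. Members with under 20 UMIs on both sides, such as Cntn2 in glia, and those where the floor would lift the poorer side above the richer could not be compared at this depth.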

Other observations

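In libraries 2 and 3, 4463 and 1689 barcodes held 3 to 7 neuronal markers and no other class, with median depths of 1044 and 971 UMIs. They entered no comparison of the main analysis. In the Leiden clustering 5007 of them lay in neuronal clusters. That alternative and the neuron gates of 3 and 6 markers therefore counted many of them as neuron-like. Their levels of the members were 49.7 and 36.2 CPM of Cntnap1, 6.74 and 19.7 CPM of Cntn1, 10.4 and 17.3 CPM of Nfasc, 250 and 55.9 CPM of Cadm1, and 3.28 and 9.05 CPM of Cadm4. Mural-like cells of library 4 held 49.6 CPM (34.1 to 69.7) of Cadm3, from 33 UMIs in 82 cells.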
